A study of Drosophila melanogaster with 3 samples.

Results

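The 6 genes amon, Fur1, Fur2, svr, Phm and dimm were grouped as neuropeptide processing genes. They encode convertases, furin-like ones included, other processing enzymes and a regulator. Peaks at these genes were examined in chromatin bound by the homeodomain protein CG18599. The 6 were chosen by name from 13945 protein-coding genes, with their peaks in these data already known, so their peaks are described here and not tested. Chromatin came from whole Drosophila melanogaster embryos of both sexes, 0 to 24 hours old, of 1 transgenic line that stably expressed CG18599 with green fluorescent protein (GFP) at its C-terminal end. Antibody against GFP recovered the protein in 3 biological replicates, which form 1 group, after sonication to fragments of 200 to 800 bp. Whole embryos of all embryonic stages were pooled, so peptide-producing cells are not resolved from the rest, and no control sample was analysed here. Each peak has a signal value by the authors whose scale is unstated, so lists were compared by ranks. A step based on the irreproducible discovery rate (IDR), which compares peak ranks between replicates, left 8858 peaks. Each replicate list holds 30000 entries, background regions included, and no read numbers are given, so depth and counting error are unknown.

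Neuropeptides are made as long precursors in the secretory pathway. Prohormone convertases cut the precursor after pairs of basic residues, a carboxypeptidase trims those residues, and an exposed C-terminal glycine is turned into an amide by a monooxygenase followed by a lyase. In the fly amon encodes the convertase of the regulated pathway, Fur1 and Fur2 encode furin-like convertases, svr (silver) encodes a carboxypeptidase D, and Phm encodes the peptidylglycine monooxygenase. The basic helix-loop-helix factor dimm (dimmed) promotes the peptide-secreting state of neuroendocrine cells and acts on Phm.

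The sequences of the places the results turn on are shown first, on the dm6 build in the direction of transcription of the member gene. For amon the 300 bp upstream of the transcription start site (TSS), chr3R:26714160-26714459 on the minus strand, are given because they hold the strongest of these peaks. Capitals there mark a run of 19 bases that occurs at 2 places.

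amon upstream: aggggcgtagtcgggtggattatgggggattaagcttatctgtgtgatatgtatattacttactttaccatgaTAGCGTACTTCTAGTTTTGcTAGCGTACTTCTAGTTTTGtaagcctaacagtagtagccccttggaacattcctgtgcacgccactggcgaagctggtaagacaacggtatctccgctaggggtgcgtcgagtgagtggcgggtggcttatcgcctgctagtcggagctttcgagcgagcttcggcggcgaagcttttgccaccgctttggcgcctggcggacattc

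For the other summits the 101 bp centred on the summit are shown, with capitals for each TAAT or its reverse complement ATTA, the core that many homeodomains bind. They are the strongest promoter summits beside Fur1 and in svr, the Fur1 intron summit with the most such cores, and both dimm summits. That Fur1 intron window was picked by its count of cores. The strongest Fur1 intron summit, of rank 3469 in the IDR list, and that of rank 4866 held none. The Fur1 windows are chr3R:25473233-25473333 and chr3R:25462763-25462863 on the minus strand. The svr window is chrX:499724-499824, and the dimm windows are chr2L:21331122-21331222 and chr2L:21324586-21324686, all on the plus strand.

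Fur1 and Vps33B promoter: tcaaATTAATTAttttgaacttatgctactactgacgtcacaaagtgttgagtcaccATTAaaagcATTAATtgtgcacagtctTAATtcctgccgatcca
Fur1 first intron: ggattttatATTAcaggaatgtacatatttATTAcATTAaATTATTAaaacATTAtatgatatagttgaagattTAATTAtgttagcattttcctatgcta
svr: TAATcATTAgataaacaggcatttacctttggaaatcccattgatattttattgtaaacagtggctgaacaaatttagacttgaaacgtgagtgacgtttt
dimm near the TSS: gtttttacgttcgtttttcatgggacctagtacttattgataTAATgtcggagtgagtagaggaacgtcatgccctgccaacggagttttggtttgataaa
dimm far upstream: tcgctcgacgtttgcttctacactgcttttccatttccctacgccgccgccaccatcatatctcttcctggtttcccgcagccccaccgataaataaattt

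CG18599 was recovered at 4 of the 6 genes. The amon promoter carried one of the strongest peaks in the genome and an svr promoter a strong one, while Fur1 and dimm had only weaker peaks of their own, and Fur2 and Phm had no IDR peak. A summit was given to a gene when it lay in the gene's span or when a TSS of the gene was the nearest within 10 kb. By that rule Fur1 had 8 summits, amon and dimm 2 each and svr 1, 13 in all, and 31.9% of all protein-coding genes had at least 1. The share differed with gene length, and it was 77.5% in the longest 10%, which holds amon and Fur1. It was 54.4% in the length class of Fur2, svr and dimm and 29.3% in that of Phm. These shares add up to 3.48 genes for the 6, beside the 4 observed, so the number of genes with a summit was close to that of genes of like length. A summit in the strongest 10% of the list was found at 2 of the 6, amon and svr, against 5.84% of all genes. That share covers genes of every length, and the 6 were chosen with their peaks known, so an excess cannot be read from it.

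**Figure D1:**
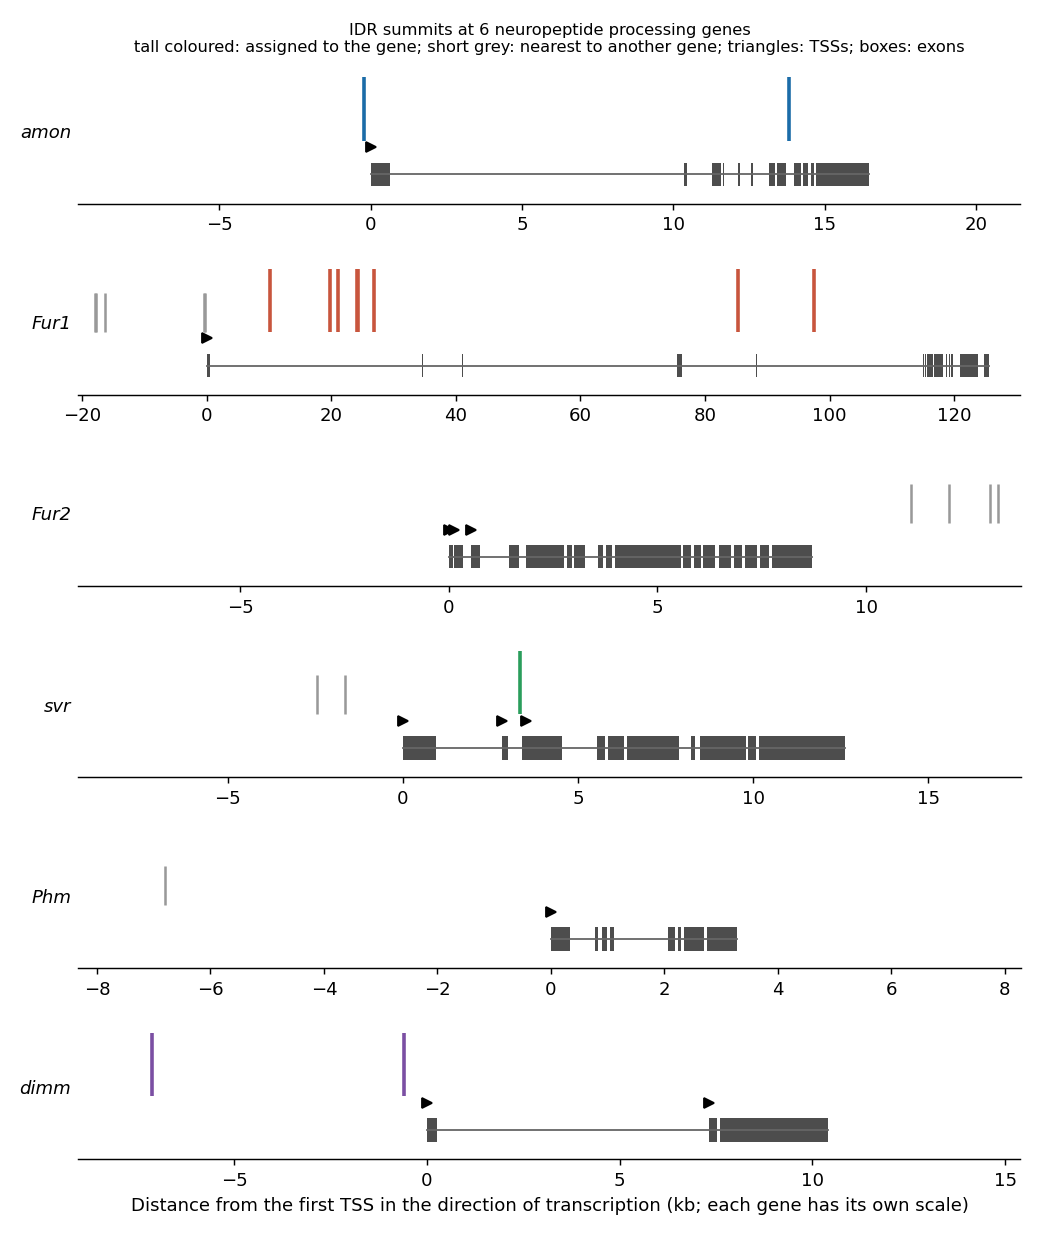
Map of the 6 genes, drawn from the first TSS in the direction of transcription, in kb, each on its own scale. Boxes are exons, triangles TSSs, tall coloured lines the 13 IDR summits given to the gene and short grey lines IDR summits nearest to another gene. Summits sit just upstream of the TSS of amon and of the last TSS of svr, in the introns of Fur1 and upstream of dimm, and Fur2 and Phm have none.

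Among the convertases, amon (FBgn0023179, 3R from 26697697 to 26714159, minus strand) stood at rank 7 of the IDR list, and the authors gave it a signal value of 7644. The peak spans 26714149 to 26714635, and its summit lies 219 bp upstream of the single annotated TSS. In the replicate lists it held rank 6 in replicate 1, rank 12 in replicate 2 and rank 4 in replicate 3, with summits 0, 8 and 9 bp from the IDR summit. All replicates therefore placed it among their 12 strongest entries, at nearly the same base. Upstream of amon the next protein-coding gene, CG6425, is transcribed in the same direction and ends 1005 bp away, so no divergent promoter shares this peak. The IDR peaks with the closest ranks in the 3 replicate lists were those next to px, ph-p and Lk6. Their summed absolute log2 rank ratios to the amon peak over the 3 lists were 1.17, 1.82 and 2.46.

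The summit of the amon peak fell inside the repeat marked above. The copies of TAGCGTACTTCTAGTTTTG begin 227 and 207 bp upstream of the TSS, 20 bp apart, and the 6 chromosome arms hold no other copy on either strand. A repeat this long within the 101 bp around the summit was found at 8 of the 8858 IDR peaks (0.0903%), and the median longest repeat was 6 bp. This feature was looked for after the sequence had been seen. Each 36-base word of this window occurs once on the 6 arms, as did those of all the other windows of these genes.

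A second amon summit, at 26700341, lay in intron 8 of 11 of the gene, 13818 bp downstream of the TSS. It held rank 3268 in the IDR list and ranks 4417, 4486 and 2102 in replicates 1, 2 and 3. The nearest TSS is that of TwdlQ, 6751 bp away, so this summit belongs to amon only through its span. It was far weaker than the promoter peak in every list.

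Fur1 (FBgn0004509, 3R from 25347431 to 25473058, minus strand) had 8 summits, all in introns, and 1.03% of protein-coding genes had as many. Its span of 125628 bp is long, and 48 genes in the annotation are at least as long. Per length the count was not high, at 63.7 summits per Mb of span, against 65.1 per Mb over arm 3R. In 6 of the 8 the summit lay in the first intron of 8 or all 9 annotated transcripts, between 10245 and 26819 bp downstream of the TSS. The other 2 lay 85353 and 97462 bp downstream and had the TSSs of CG31437 and alrm, genes nested in Fur1, as their nearest.

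The Fur1 intron summits held ranks from 3469 to 6374 in the IDR list and from 2809 to 9020 in the replicate lists. The strongest, at 25453276, held rank 3469 in the IDR list and ranks 4297, 2809 and 4149 in replicates 1, 2 and 3. The summit with the lowest rank, 6374, stood at 4832, 9020 and 4554, and replicate 2 placed it outside its 8858 strongest entries. A pair of summits at 25448720 and 25448939 lay 219 bp apart. In each replicate list their strongest entry within 250 bp was the same (ranks 7066, 3960 and 6726), so these ranks do not tell them apart. Weaker replicate entries nearby were not compared. By replicate ranks the strongest Fur1 summit was most like the IDR peak next to ATPsynCF6, with a summed absolute log2 rank ratio of 0.0714 over the 3 lists.

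A much stronger peak lay at the Fur1 promoter but was counted for its neighbour. Fur1 and Vps33B, a vesicle trafficking gene, are transcribed away from each other with 431 bp between them. The IDR peak of rank 269, from 25473071 to 25473530, has its summit 225 bp from the TSS of Fur1 and 207 bp from that of Vps33B, so a difference of 18 bp decided the assignment. Replicates 1, 2 and 3 ranked it 318, 223 and 352. In replicates 1 and 3 the summit was nearer to Fur1, at 172 and 195 bp, and in replicate 2, at 233 bp, nearer to Vps33B. A weaker IDR summit of rank 5282 lay 2 bp from the TSS of Vps33B, in an entry of nearly the same interval, 25473071 to 25473535. Its strongest entry within 250 bp was the same in replicates 2 and 3, and had rank 858 in replicate 1. With these promoter summits counted for Fur1, its best rank moves from 3469 to 269.

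Fur2 (FBgn0004598, X from 16373086 to 16381782, plus strand), the other furin-like gene, had no IDR summit and no entry in the pooled list. Replicates 1 and 3 had no entry for it either. In replicate 2 a single entry of rank 11529, below the 8858 strongest, lay 30 bp from a TSS. The closest IDR summit was 10533 bp from a Fur2 TSS and 103 bp from that of CG9992. The convertase genes thus ranged from rank 7 at amon to no IDR peak at Fur2. Absence from these lists does not show that the protein was absent there.

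The carboxypeptidase gene svr (FBgn0004648, X from 496446 to 509072, plus strand) had 1 summit, of rank 411, with a signal value of 1741. It held rank 456 in replicate 1, 402 in replicate 2 and 359 in replicate 3, with summits 1, 21 and 21 bp away, so its rank varied little. The gene has 3 annotated TSSs, and the summit, at 499774, lay 184 bp upstream of the third, at 499958, where 4 of the 11 transcripts begin. For transcripts that begin at the upstream TSSs the same place is intronic. The first TSS, 3328 bp upstream of the summit, had no IDR summit of its own. Beyond it, an IDR summit of rank 3560 lay 117 bp from the TSS of CG17778 and 1663 bp from that of svr. Farther upstream, the peak of rank 110 lay 493 bp from the TSS of CG17896 and 2458 bp from that of svr. By replicate ranks the svr peak was most like an IDR peak whose nearest TSS is that of CG42831, with a summed absolute log2 rank ratio of 0.147.

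**Figure D2:**
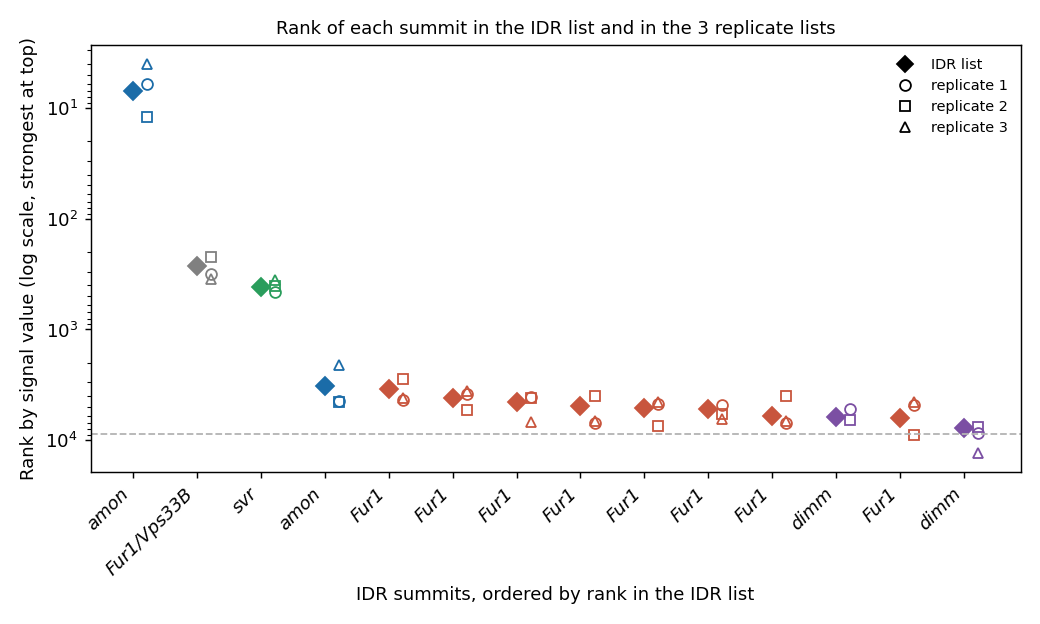
Rank by signal value (log axis, strongest at the top) of the 13 summits and of the Fur1 and Vps33B promoter peak, in the IDR list (diamonds) and in replicates 1 (circles), 2 (squares) and 3 (triangles), with the dashed line at rank 8858. The amon promoter stands at ranks 4 to 12, and the Fur1 and Vps33B promoter and svr between 223 and 456. The Fur1 intron and dimm summits stand between 2809 and 13042.

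Phm (FBgn0283509, 2R from 23985175 to 23988455, minus strand), which encodes the monooxygenase of amidation, had no entry in the IDR list, in the pooled list or in any replicate list. The same held for 35.2% of protein-coding genes when the pooled and the 3 replicate lists were searched. The closest IDR summit, of rank 1598, lay 6797 bp from its TSS and 197 bp from that of CG3860. Sox14, whose 3′ end meets that of Phm, had a peak of rank 40 at its own promoter, 9905 bp from the TSS of Phm. The genes of the lyase that acts after Phm did carry promoter peaks. Pal1 stood at rank 32 (ranks 35, 32 and 36 in replicates 1, 2 and 3) with its summit 155 bp from the TSS, and Pal2 at rank 875 (963, 1135 and 683) with its summit 124 bp from the TSS. In these lists both lyase genes thus had peaks and the monooxygenase gene had no entry.

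The regulator gene dimm (FBgn0023091, 2L from 21331756 to 21342155, plus strand) had 2 summits upstream of it and none in its span. One lay 584 bp upstream of the first TSS, at 21331172, with rank 7739 in the IDR list and ranks 8543, 7544 and 13042 in replicates 1, 2 and 3. The other lay 7120 bp upstream, at 21324636, with rank 6161 and ranks 5281 and 6582 in replicates 1 and 2, and no summit of the whole replicate 3 list lay within 250 bp. Such a gap in replicate 3 was found at 2.22% of IDR peaks. Neither dimm summit was thus among the 8858 strongest entries of replicate 3. Where a top-list peak in replicate 3 and in either other replicate was required, dimm had no summit left and 3 of the 6 genes had one. The dimm peak near the TSS stood closest to the end of the IDR list, whose last peak has a signal value of 224, against 248 at dimm. The strongest entries of these genes left out were an amon entry of pooled rank 9195 (signal value 217) and a Fur1 entry of pooled rank 9330 (214).

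Position and rank differed between the genes. Of the 13 summits, 9 lay in introns, 2 within 500 bp of a TSS and 2 between genes, against 42.7%, 36.1% and 19.2% of all IDR peaks. The 8 Fur1 summits make up most of the intronic ones. A rank in the weaker 50% of the list was held by 8 of the 13, of which 6 were Fur1 summits and 2 dimm summits. All 3 replicate top lists, cut at 8858 entries, held 10 of the 13, close to the 70.1% over all IDR peaks. A width of 440 bp was shared by 11 of the 13, as by 69.7% of all IDR peaks, and widths were not compared for that reason. The amon promoter peak was 487 bp wide and the svr peak 363 bp.

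Short motifs and base composition were read at the summits and at all IDR peaks alike. TAAT or ATTA was present within 50 bp of 10 of the 13 summits, against 71.8% of all IDR windows of 101 bp. The longer core TAATTA, which contains TAAT, was present at 2, both in Fur1 introns, against 9.04%, and it is also in the Fur1 and Vps33B promoter window, which holds 7 TAAT or ATTA cores. The Fur1 intron summit of rank 4570 held 8 such cores, where the median IDR window held 1 and 90% of windows held at most 4. Its window was also rich in A and T, at 80.2%, where 90% of windows had at most 76.2%. Whether it held more cores than other windows of like composition was not tested. ATATTA, which contains ATTA, was present at 5 summits, the amon promoter and 4 in Fur1, against 18.0%. TATATA was present at 2 (10.8% of all) and TGATAA at 1 (9.66%). None of the 13 held TATCGATA (0.824% of all IDR windows), GGTCACAC (0.587% of all), CATATG (4.14% of all), CAGCTG (4.32% of all), GAGAG (12.0% of all) or TTTATG (12.2% of all). Both strands were searched. The share of A and T was above the IDR median of 65.3% at 10 of the 13. It was 64.4% at the amon promoter and 68.3% at svr, while the dimm summit far upstream, at 49.5%, stood at the lower 10% point of all IDR windows and held no TAAT.

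Other genes of the pathway were taken from 4 lists. Among 16 genes of peptide processing and dense-core vesicles 7 (43.8%) had an IDR summit, where genes of like length would give 7.39. The strongest after Pal1 was isoQC, a glutaminyl cyclase gene, at rank 725 with a summit 93 bp from its TSS, followed by Pal2. The gene 7B2, whose product assists the amon convertase, had none. Among 10 peptidase genes 4 (40.0%) had a summit, against 4.002 by length: the neprilysin gene Nep1 at rank 766, the tripeptidyl peptidase gene TppII at rank 1034 and the gene Ance, related to angiotensin-converting enzyme, at rank 1867 were strongest. Among 9 factors of peptidergic identity 5 (55.6%) had a summit, against 5.35 by length, with the BMP receptor gene wit at rank 855, the nuclear factor gene dac at rank 5399 and the transcription factor gene kn at rank 6162. For wit the nearest TSS was that of CG32259.

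The last list holds precursor genes, which encode the peptides themselves. Of 46 such genes 8 (17.4%) had an IDR summit, against 31.9% of all protein-coding genes and a sum of 13.1 over genes of like length. The replicate top lists gave 18.1% ± 1.25 (SD, n = 3) of them. For comparison, they gave 61.1% ± 9.62 (SD, n = 3) of the 6 processing and regulator genes, where replicate 3 held 3 genes and the others 4. Those 6 are longer genes, chosen with their peaks known, and the IDR shares of genes of like length add up to 3.48 of them. Over all protein-coding genes the top lists of replicates 1, 2 and 3 gave 31.9%, 33.1% and 31.4%. The strongest precursor genes were sNPF, for short neuropeptide F, at rank 1559 (316 bp from a TSS), ITP, for the ion transport peptide, at rank 1805 (239 bp), and Proc, for proctolin, at rank 1953 (623 bp). In the strongest 10% of the list, where 5.84% of all protein-coding genes had a summit, there were 0 of the 46 precursor genes, which have a median span of 1430 bp. The genes with one in the other lists were Pal1, isoQC and Pal2 among 16, Nep1 among 10 and wit among 9. These counts were not tested.

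**Figure D3:**
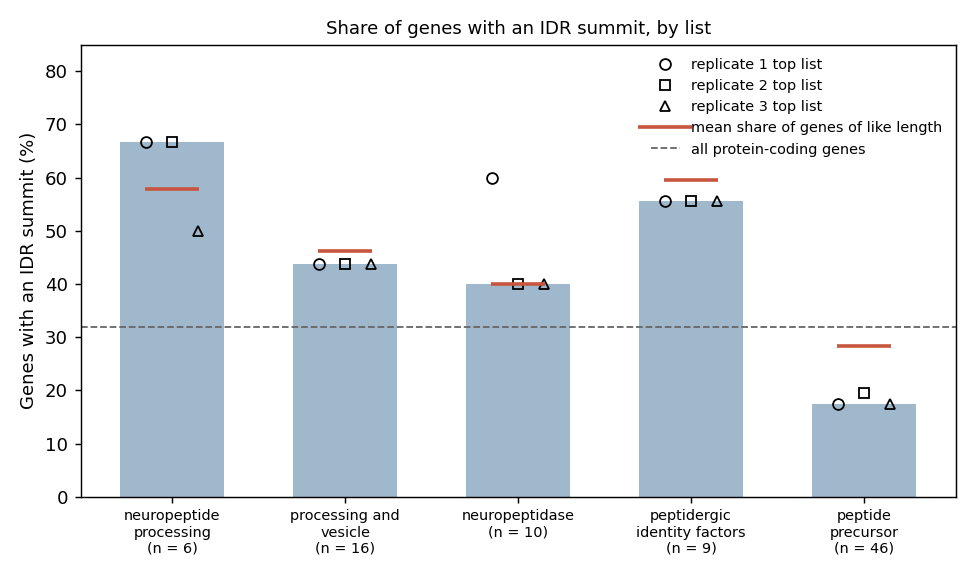
Percentage of genes with an IDR summit (bars) in the 6 neuropeptide processing genes and 4 further lists, with the share in each replicate top list (open symbols), the mean share of genes of like length (red lines) and that of all protein-coding genes (dashed line, 31.9%). Bars lie near the red lines for the 3 middle lists, at 43.8%, 40.0% and 55.6%, and below it for precursor genes, at 17.4%. For the 6 genes the bar stands for 4 genes, beside 3.48 by length.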

How the data were processed

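Chromatin immunoprecipitation and sequencing of 3 replicates was available as peak lists. The authors' signal value, a score of unstated scale, is deposited for each peak, and a further column deposited by the authors was taken to hold −log10 q-values. Per the deposited notes, reads of a replicate and a control gave each replicate list, reads of all 3 replicates the pooled list, and these 4 lists the IDR list. No source used here names the aligner, the peak caller or the IDR threshold. The dm6 lists were used, and the dm3 lists were not, since nothing was converted between builds. Coordinates count from 1. Genes are those of Ensembl release 115 and sequence is the matching RefSeq assembly. Lists were ranked by signal value, and a replicate rank is that of the strongest entry with a summit within 250 bp. A top list is the 8858 strongest entries of a replicate. Length classes each hold 10% of all protein-coding genes, ordered by span. For the sums by length, the share of genes with a summit in each gene's class was added over the list. The 6 genes and the other lists were chosen with earlier results of these data known, so no test was made. Of 47 precursor genes named, Gpa2 matched no gene and 46 were used. The genes named are the 6, the 3 strongest of each other list, neighbours that share a summit and, for each strongest summit, the peaks most alike in replicate rank; 7B2, flanking genes and genes of the closest outside peaks were added after seeing the data. The assignment and matching steps were tested on simulated data. Python 3.11.15, pandas 2.3.3 and numpy 2.4.6 were used.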

Additional observations from a re-analysis of the deposited data

How the results depend on the processing

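Of the alternatives, 56 values stayed within 1.5 times the count, or within the spread between replicates for a rank, and 10 moved. With the nearest TSS within 10 kb only, the 6 genes had 4 summits, 2 of them in every replicate top list. Fur1 then had none, although 6 of its 8 summits were nearest to its own TSS, because these lay more than 10 kb from it. The amon intron summit was counted for TwdlQ. In the stronger 50% of the IDR list they had 5 summits, all 5 in every replicate top list, and 1 factor of peptidergic identity had a summit. With summits within 500 bp of any TSS of these genes added, a setting chosen after seeing the data, 4 lay within 500 bp of a TSS and the best rank of Fur1 was 269. The entries added, of ranks 269 and 5282, cover nearly the same interval. Ranked by the −log10 q-value, amon, Fur1 and svr each had rank 1, because 55.2% of IDR peaks share the highest value of that column. In IDR peaks supported by the other replicates when 1 was left out, between 3 and 4 of the 6 genes had a summit and there were 10 to 12 summits. With summits within 250 bp merged, also chosen after seeing the data, 12 were left. No paired analysis was possible because there is 1 group. Without read numbers, what depth limits cannot be given.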

Other observations

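Among the dense-core vesicle genes, Sytbeta, a synaptotagmin gene, had 7 IDR summits, the strongest at rank 1576 and 239 bp from a TSS. Rph, which encodes rabphilin, had 4, the strongest at rank 2143 and 163 bp from a TSS. IA-2, a gene of a vesicle membrane protein, had 2, with the strongest at rank 1294 and 579 bp from a TSS, and the kinesin gene unc-104 had 1 at rank 2510. At least 2 summits were held by 1917 of the 13945 protein-coding genes. The counts of summits were not set against gene span, and the choice of these genes followed a look at their values.

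The gene crc, listed among the factors of peptidergic identity, had a summit of rank 6489 at its promoter, 84 bp from the TSS, with ranks 8047 and 6578 in replicates 1 and 2. As at the dimm summit far upstream, no replicate 3 summit lay within 250 bp. The choice of crc also followed a look at its values.

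Of the 8 IDR windows with a repeat of at least 19 bp, that of amon was the strongest, and the next stood at rank 1503, 502 bp from the TSS of Sec13, with a repeat of 30 bp.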
